A study of Rattus norvegicus with 14 samples.

Results

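The integrins, the laminin chains and the focal adhesion proteins that tie them to the actin cytoskeleton were examined in rat colonocytes. Genes were taken by name from the arrays: every integrin α and β subunit with a numbered symbol, every laminin chain, and Ilk, Ptk2, Tln1, Vcl, Pxn, Zyx, Bcar1, Parva, Lims1 and Src. This gave 36 genes read by 47 probes, of 26276 gene names and 30367 probes on the array, and each gene is represented by its brightest probe. One of the 36, Itgb3bp, entered by its symbol alone, since it encodes a centromere protein and not an integrin.

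The RNA came from young male Wistar rats fed ad libitum for 15 days either a normal protein diet (NPD, 14% of energy as protein) or an isocaloric high protein diet (HPD, 55% of energy as protein). Both diets used whole milk protein, and carbohydrate made up the difference. Colonocytes, the epithelial cells lining the colon, were released by perfusing the colon with EDTA, and total RNA of each rat was read on 1 single-colour Agilent array, with 7 NPD and 7 HPD arrays. The comparison asks how the expression of these adhesion genes in colonocytes differed between the diets. A level is given as the log2 signal relative to the median of its array, so that 0 is the array median, and a difference is HPD minus NPD on that log2 scale.

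Integrins are receptors made of 1 α and 1 β subunit that span the plasma membrane and bind matrix proteins outside the cell. Laminins, trimers of an α, a β and a γ chain, are the main adhesive proteins of the basement membrane under the epithelium. Inside the cell, integrin tails recruit talin, kindlins and the ILK, PINCH and parvin complex, which link them to actin, and the kinases FAK and Src. The α6β4 integrin is the exception: it binds laminin-332 and anchors keratin filaments through plectin, in structures called hemidesmosomes.

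Of the 46 probes with a position in the scanner files (build rn4), 7 cover more genome than their own length of 60 bases, as probes across an exon junction do. The brightest probes of Lamb3, Itgb7 and Lims1 are among these, and they are shown because such a probe reads spliced RNA. The Lamb3 probe covers chr13:109187343-109189861 on the plus strand, and the Itgb7 probe covers chr7:140971597-140971780 on the minus strand. The Lims1 probe covers chr20:37349384-37354561 on the minus strand. The sequences are written 5′ to 3′ in the sense of the mRNA.

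Lamb3 probe: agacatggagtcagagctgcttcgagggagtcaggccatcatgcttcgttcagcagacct

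Itgb7 probe: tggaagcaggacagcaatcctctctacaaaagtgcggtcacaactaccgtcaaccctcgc

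Lims1 probe: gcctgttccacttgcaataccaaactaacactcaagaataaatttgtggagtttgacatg

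The GC content of the 47 probes ran from 35% to 55%, with a median of 45%.

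In the main fit, no gene of the set was called between the diets at an adjusted p below 0.1. The study itself called Ilk, Parva and Itgb5 at that threshold. limma called 0 of 36, with adjusted p-values from 0.417 to 0.923, where 14 of all 26276 genes (0.0533%) were called. At an unadjusted p under 0.05 there were 7 of 36 genes, against 11.5% of all genes, and leaving out 1 array moved the 7 to between 3 (without NPD replicate 1, where the share of all genes was 8.86%) and 9 (without HPD replicate 1, 19.7%). Lamb3, Itgb7, Parva, Itgb1 and Ilk had lower mean signal in HPD, where the background was 5.48% of all genes in that direction. Itga11 and Itgb3 had higher mean signal, with a background of 6.05%. In no gene of the set did the diets' arrays separate completely, which happened for 0.282% of all genes with values on every array.

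The set as a whole was centred near the other genes. The mean signal was higher in HPD for 20 of the 36 and lower for 16, where 35% of all genes were lower. The median difference was 0.08 against 0.11 over all genes. For 28 of the 36 the scanner software marked the probe as well above background on all 7 arrays of 1 diet or both. Of these, 15 were higher and 13 lower, where 41.8% of all such genes were lower. Their median was 0.08 against 0.06 over all such genes. The other 8, Itga4, Itga7, Itga8, Itgb2, Itgb3, Lama1, Lama2 and Lamc3, had at least 1 array in each diet where the probe was not well above background. They include integrin subunits best known from leukocytes, platelets and muscle.

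**Figure D1:**
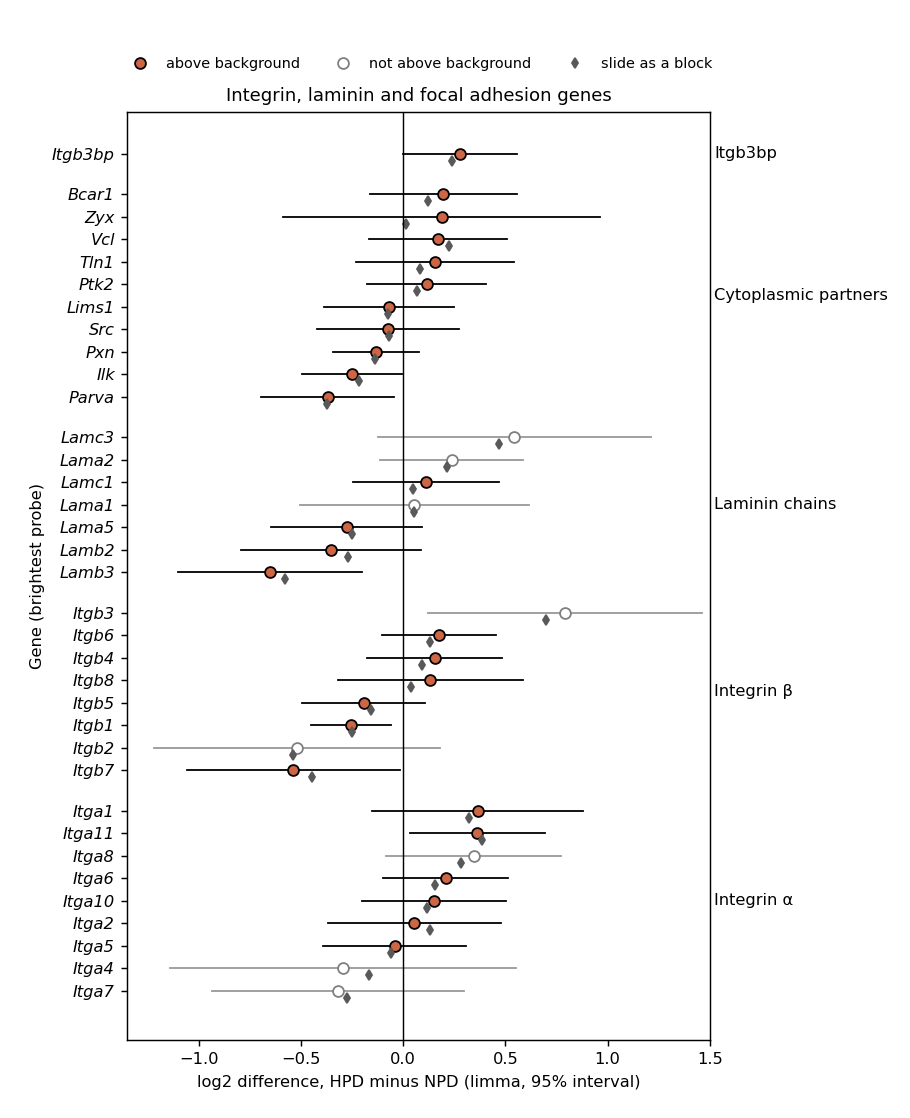
log2 difference in mean signal between HPD and NPD (x axis, HPD minus NPD) for 35 of the 36 genes, grouped by role, with circles for the limma estimate, lines for its 95% interval and small diamonds for the estimate with the slide as a block. Open circles are the 8 genes not well above background. Lamb3 lies at -0.65, left of all other genes, the α integrins above background lie mostly right of 0, and most intervals cross 0.

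The laminin chains were the receptor ligands measured here, and Lamb3, the β3 chain found in laminin-332, showed the largest difference in absolute value among the genes above background. Its signal ran from 4.92 to 5.66 with a median of 5.46 in NPD, and from 4.06 to 5.66 with a median of 4.62 in HPD. In 6 of 7 HPD arrays Lamb3 lay below the lowest NPD array, and the remaining HPD array, replicate 1, lay above the highest. The mean difference was -0.65 ± 0.21 (SE, 95% interval -1.10 to -0.20; 0.637-fold), with an exact two-sided permutation p of 0.0146 (limma adjusted p 0.417). The difference was -0.52 on slide 1 and -0.63 on slide 2, the glass slides that each carried arrays of both diets. Without HPD replicate 1, it was -0.81 with an adjusted p of 0.0976 by limma, and Lamb3 was then the 1 gene of the set called, with 131 of all genes (0.499%).

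The array has no probe under the symbol Lama3, so that chain was not analysed here. Lama5, Lamb2 and Lamc1 are given beside Lamb3 and not by the rule for named genes. Lama5, an α chain of epithelial basement membranes, differed by -0.28 ± 0.17 (SE), and Lamb2, a β chain found with it, by -0.35 ± 0.21. For each, 6 of 7 HPD arrays were below the NPD mean, and the limma adjusted p was 0.505 and 0.487. Lamc1, the common γ chain, differed by 0.11 ± 0.17, and its dimmer probe by -0.11 ± 0.18. Of these 4 laminin chains, 3 were lower on average in HPD and 1 was higher, where 41.8% of all genes above background were lower.

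**Figure D2:**
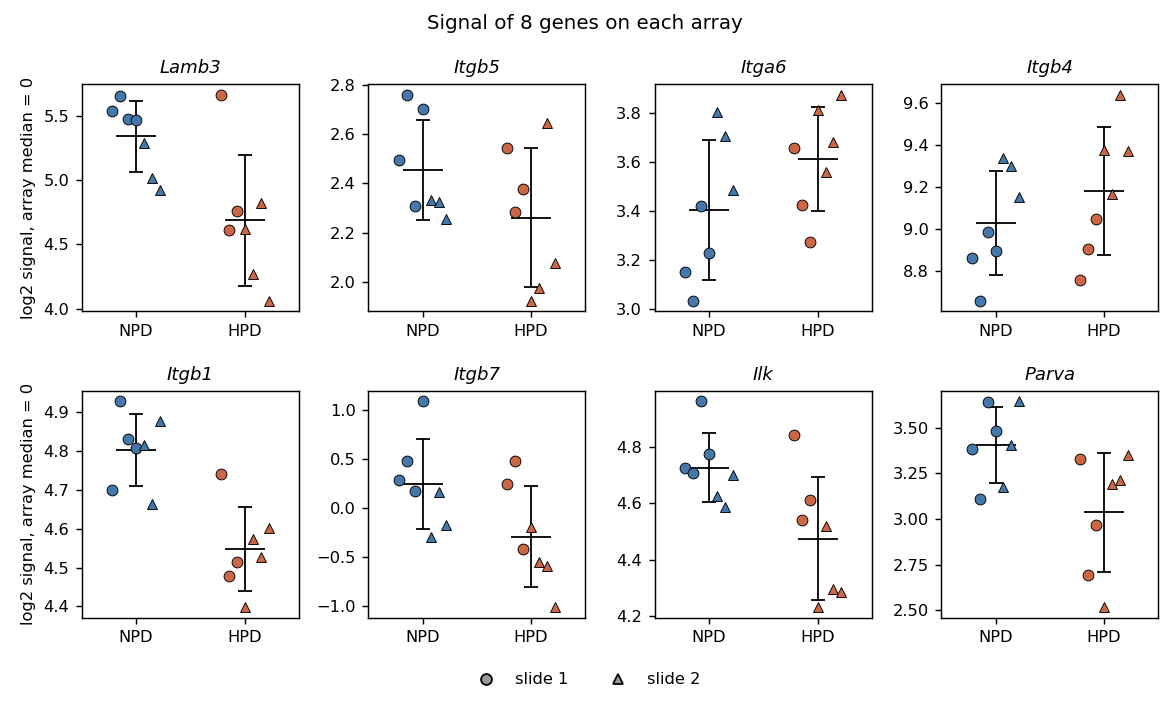
log2 signal relative to the array median (y axis) of 8 genes on each of the 7 NPD and 7 HPD arrays, with circles for slide 1 and triangles for slide 2, and bars for the mean and SD. The scales differ between panels. For Lamb3, 6 of 7 HPD arrays lie below every NPD array and HPD replicate 1 lies with the highest NPD arrays. For Itgb1, 6 of 7 lie below the lowest NPD array, whereas Itgb5, Itga6 and Itgb4 overlap more widely.

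The receptor for laminin-332, α6β4, did not differ detectably. Itga6 ran from 3.03 to 3.80 (median 3.42) in NPD and from 3.27 to 3.87 (median 3.66) in HPD, a difference of 0.21 ± 0.14 (SE; limma adjusted p 0.515). Itgb4 ran from 8.65 to 9.34 (median 8.99) in NPD and from 8.76 to 9.64 (median 9.16) in HPD, a difference of 0.15 ± 0.15 (limma adjusted p 0.627). The ranges overlapped for both subunits. Both signals were higher on slide 2, by 0.37 for Itga6 and 0.45 for Itgb4, which exceeded their difference between diets. Itgb4 was below 0 in 4 of the 27 alternative settings, at its lowest -0.05.

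Itgb1, the β subunit that pairs with most of the matrix-binding α subunits, had the smallest permutation p of the named genes. Its signal ran from 4.67 to 4.93 (median 4.82) in NPD and from 4.40 to 4.74 (median 4.53) in HPD. All 7 HPD arrays lay below the NPD mean, and 6 of 7 lay below the lowest NPD array. The difference was small, -0.26 ± 0.09 (SE, 95% interval -0.45 to -0.06; 0.837-fold), with an exact two-sided permutation p of 0.00175 (limma adjusted p 0.417). It was -0.24 on slide 1 and -0.26 on slide 2. A dimmer Itgb1 probe differed by -0.13 ± 0.12 (limma adjusted p 0.601).

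Itgb7, the β subunit of the gut-homing lymphocyte integrin α4β7 and of αEβ7, ran from -0.29 to 1.09 (median 0.18) in NPD and from -1.01 to 0.48 (median -0.41) in HPD. The groups overlapped, with 4 of 7 HPD arrays below the lowest NPD array. The difference was -0.54 ± 0.24 (SE; limma adjusted p 0.434), with an exact permutation p of 0.0589 over all splits and 0.0359 within slides. Its partner Itga4 was well above background on 6 of 7 NPD and 5 of 7 HPD arrays, and Itgb2, the leukocyte β2 subunit, on 6 and 3. Lyz2, a macrophage marker, was lower by -0.56 and Itgam higher by 0.34 among the 9 immune markers, of which 5 were detected. Their summed level ran from 4.26 to 5.56 in NPD and from 4.24 to 4.72 in HPD (exact permutation p 0.198). The part of immune cells in the Itgb7 values was not tested, and in RNA from a bulk isolate fewer cells of a type cannot be told apart from less RNA per cell.

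Itgb5, the β subunit of the vitronectin receptor αvβ5, was read by 2 probes that both lay lower in HPD. The brightest, at chr11:68644285-68644344, ran from 2.26 to 2.76 (median 2.33) in NPD and from 1.92 to 2.65 (median 2.28) in HPD, a difference of -0.19 ± 0.14 (SE; limma adjusted p 0.515). The other, at chr11:68642561-68642620, ran from 0.80 to 1.63 (median 1.29) in NPD and from 0.50 to 1.38 (median 0.72) in HPD, a difference of -0.48 ± 0.17 (limma adjusted p 0.417, exact permutation p 0.0233). The groups overlapped on both probes. Both lie on the minus strand, so the second lies nearer the 3′ end of the gene.

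The β6 and β8 subunits, which activate latent TGF-β with αv, differed by 0.17 ± 0.13 for Itgb6 and 0.13 ± 0.21 for Itgb8 (SE), and both overlapped between diets. Itgb6 ran from 4.03 to 4.67 (median 4.41) in NPD and from 4.19 to 4.75 (median 4.61) in HPD. Itgb8 ran from 0.58 to 1.71 (median 1.05) in NPD and from 0.57 to 1.77 (median 1.39) in HPD. The 6 detected β subunits thus split into 3 higher and 3 lower, with a median of -0.03. Of all genes above background, 41.8% were lower.

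Among the collagen receptors, Itga2, the epithelial α2 subunit, ran from 2.37 to 3.47 (median 2.77) in NPD and from 2.42 to 3.33 (median 2.95) in HPD. Its groups overlapped fully, and the difference was 0.05 ± 0.20 (SE; limma adjusted p 0.898). Itga11, a collagen receptor of fibroblasts, ran from -1.43 to -0.86 (median -1.20) in NPD and from -1.19 to -0.19 (median -0.77) in HPD. In 4 of 7 HPD arrays it lay above the highest NPD array, and the difference was 0.36 ± 0.15 (SE; exact permutation p 0.0256, limma adjusted p 0.422).

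Of 7 fibroblast markers 3 were detected, and they differed by 0.35 ± 0.12 for Col1a1, -0.08 ± 0.18 for Col1a2 and 0.01 ± 0.30 for Pdgfrb (SE). Col3a1 was well above background on 0 of 7 NPD and 1 of 7 HPD arrays, and Dcn, Lum and Pdgfra on none. The summed level of the 7 ran from 2.10 to 2.64 in NPD and from 2.32 to 2.87 in HPD (exact permutation p 0.0583), and their part in the Itga11 difference was not tested. Of the 6 detected α subunits, 5 were higher and 1, Itga5, was lower, where 41.8% of all genes above background were lower. The median of the 6 was 0.18 against 0.06 for all genes above background.

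Itgb3, the platelet and endothelial β3 subunit, was well above background on 0 of 7 NPD arrays and 1 of 7 HPD arrays. Its mean levels were -3.72 in NPD and -2.93 in HPD (limma adjusted p 0.417). Nearly all of these signals were at background, so the size of their log2 difference, 0.79, is uncertain. It ran from 0.18 to 1.01 over the settings tried. The summed level of 4 endothelial markers ran from 3.33 to 3.65 in NPD and from 3.44 to 3.84 in HPD (exact permutation p 0.0338), and that of 3 platelet markers from 0.852 to 1.78 and from 0.646 to 1.80 (exact permutation p 0.592). Their part was not tested.

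The ILK, PINCH and parvin complex couples β1 and β3 integrin tails to actin, and Ilk and Parva were among the lower genes of the set. Parvb, another detected parvin that the set does not hold, differed by 0.17 ± 0.15 (SE). Ilk, the pseudokinase at its centre, ran from 4.59 to 4.96 (median 4.71) in NPD and from 4.23 to 4.84 (median 4.52) in HPD. In 5 of 7 HPD arrays it lay below the lowest NPD array, with a difference of -0.25 ± 0.11 (SE; exact permutation p 0.0245, limma adjusted p 0.434). Parva, the actin-binding α-parvin, ran from 3.11 to 3.65 (median 3.41) in NPD and from 2.52 to 3.35 (median 3.19) in HPD. All 7 HPD arrays lay below the NPD mean and 3 lay below the lowest NPD array, with a difference of -0.37 ± 0.15 (SE; exact permutation p 0.0251, limma adjusted p 0.418). Lims1, which encodes PINCH-1 and is read across a splice junction by the probe shown above, differed by -0.07 ± 0.15 (limma adjusted p 0.821), and its HPD range of 3.89 to 4.27 lay inside its NPD range of 3.67 to 4.65.

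The signalling and scaffold genes of the focal adhesion showed small differences. Ptk2, which encodes the kinase FAK, differed by 0.12 ± 0.14, and Src by -0.07 ± 0.16 (SE). Tln1, the talin that switches integrins on, differed by 0.16 ± 0.18, and Vcl, its partner vinculin, by 0.17 ± 0.16. Paxillin (Pxn), a docking protein, was lower in 5 of 7 HPD arrays than the NPD mean, by -0.13 ± 0.10. Bcar1, the substrate p130Cas, differed by 0.20 ± 0.17, and Zyx, the tension-responsive zyxin, by 0.19 ± 0.36. All 7 overlapped between diets, with limma adjusted p from 0.521 to 0.824. The Zyx arrays spread widely, from 3.91 to 5.88 in NPD, and its signal was 1.21 higher on slide 2 than on slide 1.

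A second probe was available for 11 of the 36 genes, and its difference between diets had the same sign as that of the brightest probe in 7 and the opposite sign in 4. The opposite signs included Bcar1, Lamc1 and Zyx. For Zyx the second probe differed by -0.23 ± 0.14 and for Bcar1 by -0.18 ± 0.11 (SE), so the direction given for these genes depends on the probe. Which transcripts each probe reads was not tested.

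**Figure D3:**
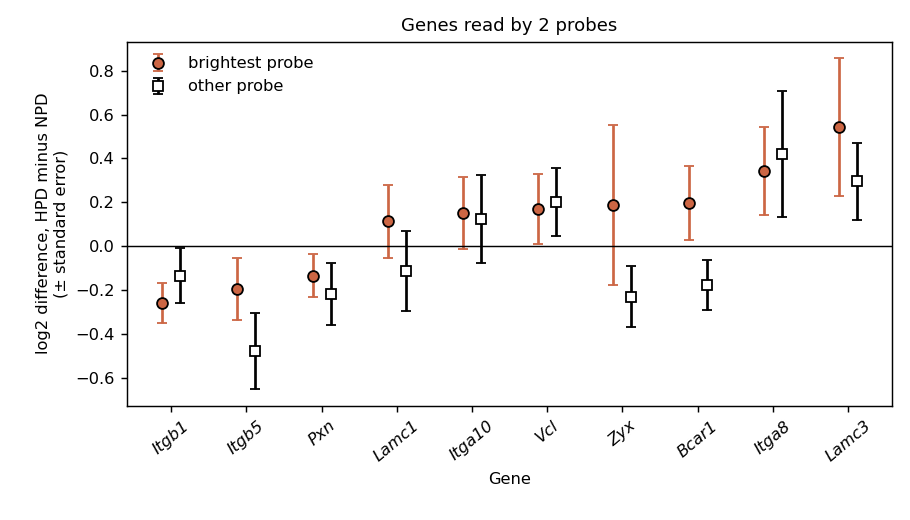
log2 difference between HPD and NPD (y axis, with its standard error) of the brightest probe (filled circles) and the other probe (open squares) for genes with 2 probes. The signs are opposite for Lamc1, Zyx and Bcar1, and for Itgb5 the dimmer probe gave -0.48 against -0.19.

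Whether partners vary together from rat to rat was examined for 4 pairs, of which 3 are given, after taking off the means of diet and slide, over 14 arrays. Ilk and Parva correlated most, with Pearson's r of 0.67 (permutation p 0.00873, adjusted over the 4 pairs 0.0349) and Spearman's rho of 0.75 (permutation p 0.00274, adjusted 0.011). Without the 2 arrays farthest in Ilk, r was 0.65. Within slide 1 r was 0.91 (permutation p 0.00556, over all orders of the arrays) and within slide 2 it was 0.46 (permutation p 0.288), 7 arrays each. Itga6 and Itgb4 gave r of 0.25 (permutation p 0.391, adjusted 0.487; rho 0.11, permutation p 0.703) and 0.06 and 0.44 within the slides. Ilk and Lims1 gave 0.20 (permutation p 0.487, adjusted 0.487; rho 0.02, permutation p 0.953), and 0.61 and -0.29 within the slides. The means taken off came from the same arrays, which leaves the deviations less free than the permutations assume. The p-values of these correlations are thus approximate and lean small. All genes of an array share its labelling and its slide, and their part in these correlations was not tested.

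**Figure D4:**
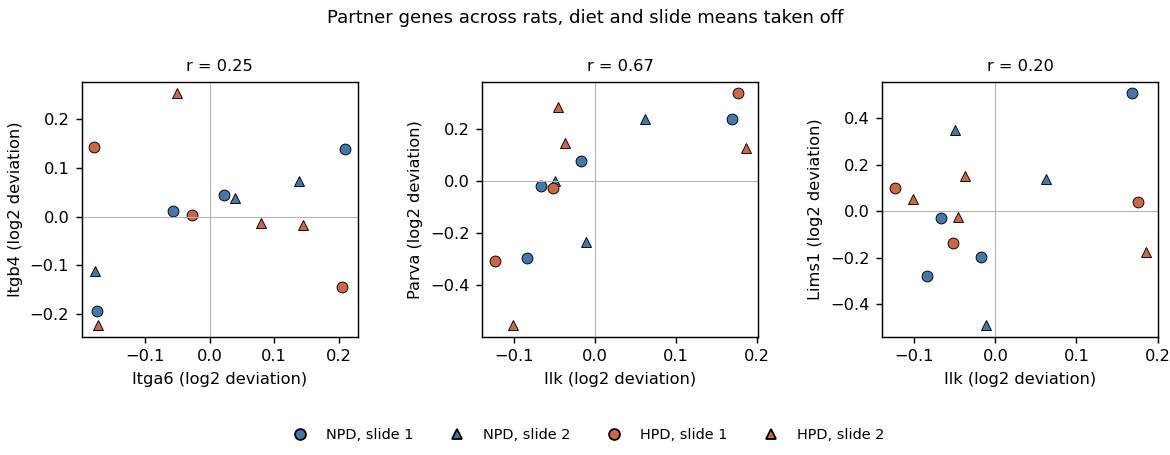
Deviations of 14 arrays from the mean of their diet and slide, in log2 units, for 3 pairs of genes (1 gene on each axis), with blue for NPD, orange for HPD, circles for slide 1 and triangles for slide 2. Ilk and Parva follow each other most closely, at r = 0.67.

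The processing of the arrays decided how many genes of the set were called. With normexp, a model-based background correction, 8 of the 36 were called (5 lower), beside 16.9% of all genes, and with the slide as a block too, 10 were called beside 28.0%. The authors' normalized table without a block gave 0 of 36, beside 0.0681% of all genes. With the authors' normalized table and the slide as a block, 4 of 36 were called, all lower, beside 10.5% of all genes (6.50% lower). Those 4 were Lamb3 at -0.66, Parva at -0.45, Ilk at -0.32 and Itgb5 at -0.31. Lamb3 lay between -0.81 and -0.55 over 28 settings, the main one included, and was called in 4 of them. Ilk and Parva were called lower in 3 each and Itgb1 and Pxn in 2, and Itga11 and Itgb3 were called higher in 2. Lamb2, above background in both diets, was called lower at -0.298 with normexp and the slide block. Of genes near background in both diets, Itga8 was also called higher with normexp, with and without the slide block, and Lama2 with the block. Of the named genes given, Lamb3, Parva, Ilk, Itgb1, Itgb5, Itgb7, Pxn and Src were lower in HPD in every setting run. Src came as near to 0 as -0.00283. Itga11, Itgb3, Itga6, Itgb6 and Vcl were higher in HPD in every setting run for them, and Itgb6 came as near to 0 as 0.00677.

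**Figure D5:**
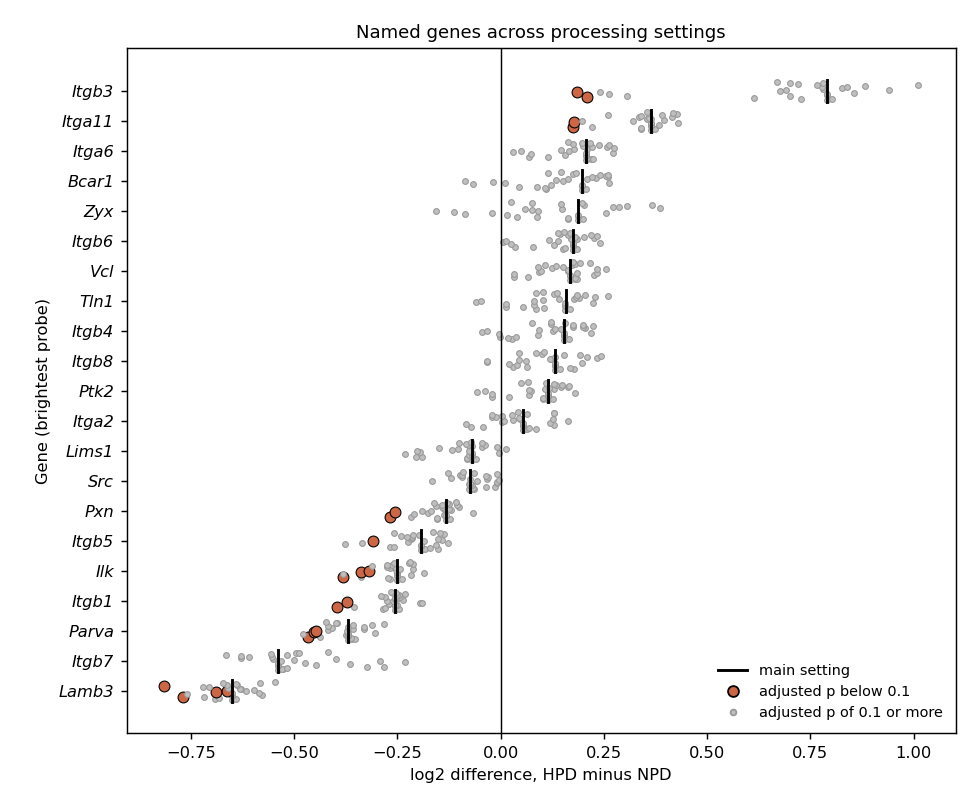
log2 difference between HPD and NPD (x axis) of 21 named genes under each of the processing settings run, with the black bar at the main setting and large orange circles where the adjusted p fell below 0.1. Lamb3 stays between -0.81 and -0.55, and genes such as Itga2, Itgb4, Ptk2 and Zyx have settings on both sides of 0.

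The array and slide values bear on all of these genes. The median background-subtracted signal of an array was 149 ± 22.3 in NPD and 112 ± 13 in HPD (mean ± SD, 7 arrays each, exact permutation p 0.00408), and its part in the differences was not tested. Slide 1 carried 4 NPD and 3 HPD arrays and slide 2 carried 3 and 4, and the slide changed 40.1% of all probes and 19 of the 36 genes at a limma adjusted p below 0.1. Of the lower genes, Lamb3, Itgb7 and Ilk differed by -0.51, -0.65 and -0.24 between slides (slide 2 minus slide 1), and Itgb1 and Parva by -0.04 and 0.04. For Itgb7 this exceeded its difference between diets. With the slide as a block, the diet differences were -0.58 for Lamb3, -0.446 for Itgb7, -0.22 for Ilk, -0.25 for Itgb1 and -0.375 for Parva. limma then still called 0 of the 36, and 24 of all genes (0.0913%), and 14.9% of all genes had an unadjusted p under 0.05. The 14 arrays correlated at 0.970 to 0.992, and between 18862 and 21002 probes per array were well above background. All 11 epithelial markers were detected, with a summed level of 12.8 to 13 in NPD and 12.7 to 13.2 in HPD (exact permutation p 0.920).

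Further adhesion genes outside the set, chosen for their place in the pathway, were compared in the same fit. Of 76 listed, 68 were on the array and 46 were detected, and limma called 0. The split was 37 higher and 31 lower, where 35% of all genes were lower, with a median of 0.05. At an unadjusted p under 0.05, 3 were higher and 8 lower, where 6.05% of all genes were higher and 5.48% lower. The higher ones were Itgam at 0.34 ± 0.15, Tgfb1i1 at 0.33 ± 0.15 (SE) and Tns1, which was well above background on 0 of 7 NPD and 1 of 7 HPD arrays. The lower ones included Col17a1, the transmembrane collagen of hemidesmosomes, at -0.77 ± 0.27, Bcam, a receptor of laminin α5, at -0.43 ± 0.13, and Sdc4, a heparan sulfate proteoglycan of focal adhesions, at -0.74 ± 0.25 (SE). The study itself reported Sdc4 as lower in HPD, both on its arrays and by quantitative real-time PCR. Plec, the plectin that joins α6β4 to keratin, differed by 0.23 ± 0.15, and the kindlin Fermt1 by -0.13 ± 0.12.

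The study's own list of integrin signaling genes, which it drew from these samples and which is thus not independent evidence of its direction, had 31 of 32 genes on the array. Of these, 25 were lower and 6 higher, where 35% of all genes were lower, with a median of -0.25 and 0 called. At an unadjusted p under 0.05, 12 were lower and 2 higher. The study drew the list from genes it called at an adjusted p below 0.1, and it predicted the pathway to be inhibited in HPD. The main fit here did not reproduce those calls, and the cause was not tested. The study's list shares Ilk, Parva and Itgb5 with the set. Its other genes are mostly cytoplasmic signalling and actin genes such as Arpc2 at -0.55 ± 0.18 and Akt1 at -0.30 ± 0.10 (SE).

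Upstream sequences were available for 27 of the 36 genes, 31 start sites in all. The 250 bases before the start are shown for 4 of the 5 lower genes Lamb3, Itgb7, Parva, Itgb1 and Ilk, all of which had an unadjusted p under 0.05, and Parva is not among the entries. The entries, from RefSeq, carry positions of build GRCr8: chr13:107362303-107362552 for Lamb3 (plus strand), chr19:73602027-73602276 for Itgb1 (plus), chr1:169500471-169500720 for Ilk (plus) and chr7:135239072-135239321 for Itgb7 (minus). Capitals mark a GC box (GGGCGG) or a TATA box (TATAAA) on either strand.

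Lamb3 upstream: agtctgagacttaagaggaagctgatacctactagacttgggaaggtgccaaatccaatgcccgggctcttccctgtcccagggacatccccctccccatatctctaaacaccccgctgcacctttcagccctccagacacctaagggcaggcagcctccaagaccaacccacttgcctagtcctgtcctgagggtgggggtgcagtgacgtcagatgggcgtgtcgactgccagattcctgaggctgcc

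Itgb1 upstream: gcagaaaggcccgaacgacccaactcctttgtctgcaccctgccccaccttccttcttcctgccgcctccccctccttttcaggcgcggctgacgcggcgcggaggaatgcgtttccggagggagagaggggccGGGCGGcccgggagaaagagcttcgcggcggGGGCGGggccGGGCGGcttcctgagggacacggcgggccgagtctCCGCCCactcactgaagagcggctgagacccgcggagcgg

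Ilk upstream: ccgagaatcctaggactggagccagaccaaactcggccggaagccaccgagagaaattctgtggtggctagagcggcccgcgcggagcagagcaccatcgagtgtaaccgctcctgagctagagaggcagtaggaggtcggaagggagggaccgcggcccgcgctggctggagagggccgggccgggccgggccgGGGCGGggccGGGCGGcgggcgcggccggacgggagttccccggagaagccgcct

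Itgb7 upstream: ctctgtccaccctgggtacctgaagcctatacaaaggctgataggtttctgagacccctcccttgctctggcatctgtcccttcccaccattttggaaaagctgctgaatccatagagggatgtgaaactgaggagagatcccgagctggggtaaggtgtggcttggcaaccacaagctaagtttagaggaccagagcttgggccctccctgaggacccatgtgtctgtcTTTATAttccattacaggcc

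The 4 sequences differ in these letters. The Itgb1 window holds 4 GC boxes and the Ilk window 2, whereas the Lamb3 and Itgb7 windows hold 0 and the Itgb7 window has 1 TATA box. Over the 31 start sites, 16 held a GC box, which 30.5% of all 33469 windows of this length held. A TATA box was in 2, against 12.9%, and the AP-1 letters TGANTCA were in 0, against 6.34%. The median GC content was 60.8% over the windows of the set and 51.2% over all windows. A match describes letters only, and whether any factor binds there was not tested.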

How the data were processed

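Colonocyte RNA of 14 rats, 7 per diet, was labelled with Cy3 and hybridised to 1-colour Agilent rat arrays of 62976 spots. Per the labels, the authors scanned the arrays with Agilent Feature Extraction 10.7.3.1, and the deposited intensity used here is its background-subtracted signal. Normalized log2 values of 26414 gene names, which the authors made with limma and deposited as well, served as an alternative, centred by array per the study's methods, with the signal column and the centring statistic not given in the sources used here. The study left out 1 outlying rat per diet, not analysed here. Columns of other samples numbered 0.

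Control spots and spots that the scanner software flagged as outliers were dropped. The log2 signal of the remaining spots of each probe was averaged and each array was centred on its median over 30367 probes. limma 3.58.1 in R 4.3.3 compared the diets, with Benjamini-Hochberg adjustment over all probes and a call at an adjusted p below 0.1, as the study's methods set it. The fit was tested on simulated data. Single genes also had an exact permutation test over all 3432 splits of the arrays (smallest p 0.000583) and over 1225 regroupings within slides. Correlations used 100000 resamples. A probe was well above background on an array when the scanner software marked any of its spots so, outlier spots left out. It counted as above background, or detected, when this held on every array of a diet. The p-values measure the spread between rats, and precision is limited by how many arrays there are. A fold is the antilog of a log2 difference.

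Genes were named if their unadjusted p was under 0.05 or they belonged to a list of epithelial integrins, laminin-332, the ILK complex and focal adhesion genes: 22 in all, of which 1 is not reported here, and with Itga3 and Lama3 not analysed here. Counts over all 36 genes and all 4 pairs include what is not reported. The members and lists were chosen with earlier results of these data known. Alternatives covered centring, quantile and cyclic loess normalization, background correction (normexp with an offset of 50, or median pixel signal), a filter on dim probes, the threshold, slide and replicate blocks, the table used, the choice of probe and leaving out each array. Normexp and the authors' table, each with the slide as a block, and centring over spots were added after seeing the data.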

Additional observations from a re-analysis of the deposited data

How the results depend on the processing

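Under most settings limma called 0 of the 36 genes. Normexp called 8 (5 lower), with 13 at an unadjusted p under 0.05, beside 33.6% of all genes. Adding the slide as a block to normexp gave 10 (6 lower) and 14, beside 36.6%, and adding it to the authors' table gave 4 (4 lower) and 11, beside 26.9%. Leaving out 1 array gave 0 to 1 called, 0 to 1 of them lower, and 3 to 9 at an unadjusted p under 0.05. The 3 came without NPD replicate 1, and 4 came without NPD replicates 2, 3 or 7 or HPD replicates 4, 5 or 7. The median difference of the set moved from 0.0838 to -0.0177 with the authors' table and to -0.0364 with the slide block added. Quantile normalization moved the median of all genes from 0.110 to 0.0172, and cyclic loess to 0.00578, where that of the set was 0.0135 and 0.00161. For the further adhesion genes normexp called 12 (8 lower), normexp with the slide block 17 (11 lower) and the authors' table with the block 8 (8 lower), and for the study's list the counts were 21 (16 lower), 29 (24 lower) and 30 (26 lower). Over all genes these settings called 16.9%, 28.0% and 10.5%. The cause of these changes was not tested.

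Genes near 0 changed sign. With normexp Itga2 was -0.0714, Itgb4 -0.00063 and Ptk2 -0.0212, and without background subtraction Itga2 was -0.0425. With the authors' table Bcar1 was -0.068, Itga2 -0.0839, Itgb4 -0.00408, Ptk2 -0.02 and Zyx -0.0855. With normexp and the slide block Bcar1 was -0.0191, Itgb4 -0.045, Itgb8 -0.0322, Ptk2 -0.0576, Tln1 -0.0597 and Zyx -0.112. With the authors' table and the slide block Bcar1 was -0.0865, Itgb4 -0.0321, Itgb8 -0.0338, Ptk2 -0.0389, Tln1 -0.0464 and Zyx -0.157. Over the mean of all probes Zyx was -0.0207. Leaving out 1 array, Itga2 ranged from -0.0219 to 0.162 (below 0 without NPD replicates 6 or 7 or HPD replicate 3) and Lims1 from -0.15 to 0.0135 (above 0 without NPD replicate 3).

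Of the partner correlations, Ilk with Parva missed the threshold at 0.458 on slide 2, and Ilk with Lims1 turned to -0.294 on slide 2. Replicate numbers are shared between diets but nothing pairs the rats, and deviations of same-numbered arrays correlated from -0.152 to 0.656. With the replicate number as a block, 0 of 36 genes were called and 8 had an unadjusted p under 0.05, beside 21.4% of all genes. Dim signal limits the 8 genes near background.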

Other observations

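Markers of other cell types that touched no result above are given as values. Summed goblet cell markers ran from 12.0 to 12.7 in NPD and from 11.6 to 13.3 in HPD (6 markers, exact permutation p 0.275), and crypt base markers from 5.62 to 6.78 and from 5.34 to 6.95 (4 markers, exact permutation p 0.868). Muscle markers ran from 2.70 to 4.36 in NPD and from 2.33 to 3.85 in HPD (5 markers, exact permutation p 0.222). Enteric glia markers ran from 0.288 to 0.835 and from 0.550 to 1.30 (3 markers, exact permutation p 0.0233), of which Sox10 was detected in both diets and differed by 0.44. The 1 red blood cell marker on the array ran from -0.667 to 3.58 in NPD and from -3.59 to 5.41 in HPD (exact permutation p 0.955).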
